A study of Mus musculus with 8 samples.

Results

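The genes described here are 9 complement components and receptors: C1qa, C1qb, C1qc, C2, C3, Cfb, Cfp, C3ar1 and C5ar1. They were picked out by gene symbol in the deposited probe table, with no threshold on measured values, although earlier results of these data were known when the list was made. Each gene had 1 probe, so 9 of the 25697 probes and 9 of the 18138 gene symbols on the array were followed. All 9 passed the detection filter.

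The RNA came from bone marrow cells of female C57bl/6J mice aged 8 weeks. The cells were grown for 7 days in GM-CSF (10 ng per ml), a growth factor given to obtain macrophages. WT cells and cells labelled iNOSKO, from mice deficient in inducible nitric oxide synthase (a Nos2 mutant strain), were each either left unstimulated (CON) or given LPS (200 ng per ml) and IFN-γ (10 ng per ml) for 6 h (M1). LPS is a bacterial cell wall component, and with IFN-γ it drives the inflammatory M1 state. Each of the 4 groups had 2 Illumina bead arrays. Whether the arrays of a pair came from separate mice is not given in the labels, so p-values measure the spread between arrays, which may be technical.

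Complement is a cascade of plasma proteins that marks microbes and dying cells for uptake. C1q, built from the chains C1qA, C1qB and C1qC, starts the classical pathway, C2 and factor B (Cfb) supply the proteases of the classical and alternative C3 convertases, and both convertases cleave C3. Properdin (Cfp) stabilises the alternative convertase. The released fragments C3a and C5a act on the receptors C3ar1 and C5ar1. Most circulating complement is made in the liver, but macrophages make C1q, properdin, C3 and factor B themselves.

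Between 46.05% and 49.32% of the probes were detected on each array. Nos2, the targeted gene, read 7.52 and 7.10 log2 intensity in WT M1 and 7.59 and 7.76 on the arrays labelled iNOSKO M1, and it was not detected on any of the 4 CON arrays. The Nos2 probe therefore read no lower on the arrays labelled iNOSKO, and it starts at transcript position 3546. Whether this position lies outside the disrupted part of the gene is not given in the sources used here, so the probe may check nothing, and every genotype direction below rests on the labels. Of 10 macrophage markers, at least 9 were detected on both arrays of every group. The summed scaled intensity of the macrophage markers was 41500 to 42100 in WT CON, 42900 to 47300 in WT M1, 31500 to 33400 in iNOSKO CON and 48000 to 48100 in iNOSKO M1. No lymphocyte marker of 5 was detected on both arrays of any group, and at most 1 of 6 fibroblast markers was. In such bulk RNA, fewer cells of a type and less RNA per cell cannot be told apart.

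After activation the alternative and classical pathway genes C3, Cfb and C2 were higher on the iNOSKO arrays than on the WT arrays, by 2.31-fold, 2.93-fold and 2.6-fold. C1qa and C1qc, by contrast, were 1.7-fold and 1.35-fold lower. C3 rose after LPS and IFN-γ only on the iNOSKO arrays, with a tested difference between the genotypes, whereas Cfb rose in both. C1qa rose in WT and fell in iNOSKO. All values below are log2 intensity after scaling between arrays, and a gene was called changed at an adjusted p under 0.05 from limma.

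**Figure D1:**
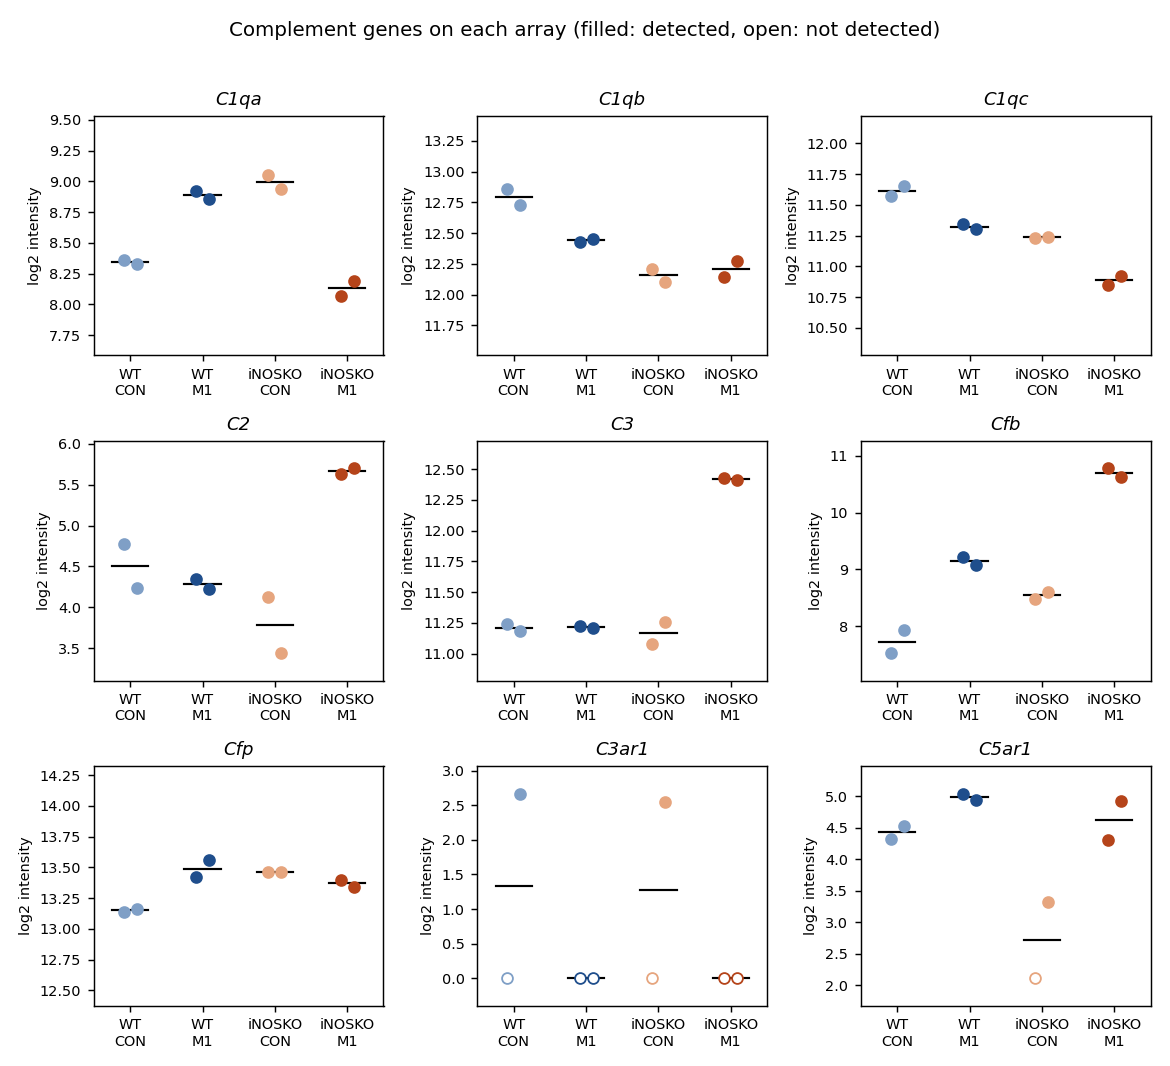
Scaled log2 intensity of the 9 genes on each of the 8 arrays, by group. Each panel has its own vertical range, points are arrays (filled where the probe was detected, open where it was not) and lines are group means of 2 arrays. C3, Cfb and C2 are highest on both iNOSKO M1 arrays, C1qa is lowest there, and C3ar1 is detected on 1 array of each CON group only.

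C3, the protein on which all complement pathways converge, read 11.24 and 11.18 in WT CON and 11.22 and 11.21 in WT M1. It read 11.08 and 11.26 in iNOSKO CON and 12.43 and 12.41 in iNOSKO M1. Both iNOSKO M1 arrays thus lay above the other 6, which overlapped. The change with M1 activation was 0.00 ± 0.09 (SE, n = 2 arrays per group) in WT (limma adjusted p = 0.975) and 1.25 ± 0.09, or 2.38-fold, in iNOSKO (limma adjusted p = 0.000318). The difference between these responses was 1.24 ± 0.13 (limma adjusted p = 0.00181). Between the M1 groups C3 was higher by 1.21 ± 0.09 on the iNOSKO arrays (limma adjusted p = 0.000516), and between the CON groups the difference was -0.04 ± 0.09 (limma adjusted p = 0.798). The sizes moved with the scaling: under quantile normalization the iNOSKO response was 0.56, the difference between the M1 groups 0.65 and the difference in response 0.48, and under neqc they were 0.55, 0.65 and 0.48. All of these stayed called.

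The promoter of C3 is shown because this gene responded on the iNOSKO arrays and not on the WT arrays. These are the 250 bases before the RefSeq start, chr17:57228137-57228386 of GRCm38.p6, minus strand, 5′ to 3′. Capitals mark matches, on either strand, to the pattern TTNNGNAA of C/EBP factors, which act on many inflammatory and acute phase genes.
C3: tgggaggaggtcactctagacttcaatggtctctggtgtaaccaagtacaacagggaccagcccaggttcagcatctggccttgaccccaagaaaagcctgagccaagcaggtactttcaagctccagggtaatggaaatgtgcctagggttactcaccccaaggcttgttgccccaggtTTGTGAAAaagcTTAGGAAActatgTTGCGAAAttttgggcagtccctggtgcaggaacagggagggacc
The first bases of the 3 C/EBP matches lie 70, 58 and 45 bases before the start. Of 32851 promoters of the same length, 36.8% held such a match. The interferon patterns TTCNNNGAA (GAS) and GAAANNGAA (ISRE), found in 7.02% and 7.13% of those promoters, and the NF-kB pattern GGGNNTTCC, found in 4.98%, had no match in this window. A looser NF-kB pattern tried first did match in C3, so the lack of an NF-kB match depends on the pattern chosen. GAS and C/EBP matches can overlap. A match describes the letters only, and no binding was measured.

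Cfb encodes factor B, the protease of the alternative C3 convertase. It read 7.53 and 7.93 in WT CON, 9.22 and 9.08 in WT M1, 8.48 and 8.61 in iNOSKO CON, and 10.78 and 10.63 in iNOSKO M1. No group overlapped another, and the order was WT CON, iNOSKO CON, WT M1 and iNOSKO M1. Activation raised Cfb by 1.42 ± 0.16 in WT, or 2.68-fold (limma adjusted p = 0.00264), and by 2.16 ± 0.16 in iNOSKO, or 4.46-fold (limma adjusted p = 0.000321). Cfb was higher in iNOSKO than in WT both after activation, by 1.55 ± 0.16 (limma adjusted p = 0.00117), and before it, by 0.82 ± 0.16 (limma adjusted p = 0.0158). The call in CON was lost when WT CON replicate 1 (0.58), iNOSKO CON replicate 1 (0.90) or iNOSKO CON replicate 2 (0.78) was left out. With only the arrays compared, the CON difference of Cfb also lost its call (limma adjusted p = 0.0589). For Cfb the difference in response, 0.74 ± 0.23, narrowly missed the threshold (limma adjusted p = 0.0503). It was called with the stricter detection filter (limma adjusted p = 0.0429), with the intensity trend (limma adjusted p = 0.00293) and without WT CON replicate 1 (0.98, limma adjusted p = 0.0212), but at 0.31 under quantile normalization and 0.34 under neqc it was not. Whether the Cfb responses were unequal therefore depends on the processing.

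C2 adjoins Cfb in the RefSeq gene table and encodes the matching protease of the classical and lectin pathways. Its probe was dim, at 4.77 and 4.23 in WT CON, 4.35 and 4.22 in WT M1, 4.13 and 3.44 in iNOSKO CON, and 5.63 and 5.70 in iNOSKO M1. The iNOSKO M1 arrays lay above all others and the iNOSKO CON arrays below all others, while the WT groups overlapped. The iNOSKO response was 1.88 ± 0.28, or 3.69-fold (limma adjusted p = 0.00366), against -0.21 ± 0.28 in WT (limma adjusted p = 0.603). The difference between them was 2.10 ± 0.40 (limma adjusted p = 0.0113). C2 was higher by 1.38 ± 0.28 in iNOSKO M1 than in WT M1 (limma adjusted p = 0.0121), a call that was lost without WT M1 replicate 2 (limma adjusted p = 0.0589). In CON, where the groups did not overlap, the difference was -0.72 ± 0.28 and was not called (limma adjusted p = 0.117), but under neqc it was -0.42 and called (limma adjusted p = 0.0277). Under neqc the iNOSKO response was 1.16, still called.

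Markers of dendritic cells and granulocytes also differed between the groups, in part in other comparisons than these genes. The summed intensity of 10 dendritic cell markers was 293 to 335 in WT CON, 5850 to 5930 in WT M1, 4940 to 5170 in iNOSKO CON and 17500 to 18700 in iNOSKO M1. Flt3, 1 of the 10, was undetected in every group, and 6 of the 10 were detected on both arrays of iNOSKO M1 against 4 in WT CON and 7 in the other groups. The summed intensity of 8 granulocyte markers was 1180 to 1200 in WT CON, 1450 to 1560 in WT M1, 1740 to 1800 in iNOSKO CON and 4120 to 4250 in iNOSKO M1, with Mpo undetected throughout. Both sums were highest in iNOSKO M1, as C3, Cfb and C2 were, and so was the sum of the macrophage markers. The dendritic cell sum was also far higher in WT M1 and in iNOSKO CON than in WT CON. In both comparisons C3 and C2 were not called, while Cfb was called higher, by 1.42 and 0.82. Of the 8 dendritic cell markers tested, 3 were called higher and 1 lower in iNOSKO M1 than in WT M1 (median change 0.20), beside 24.5% and 23.9% of all probes. In the difference in response 0 were higher and 6 lower (median -2.85), beside 21.0% and 21.1% of all probes. There C2 and C3 were called higher, and Cfb was not called. Of the 7 granulocyte markers tested, 3 were higher and 0 lower in iNOSKO M1 than in WT M1, and 2 were higher and 1 lower in the difference in response. The part of these cells in the result was not tested.

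**Figure D2:**
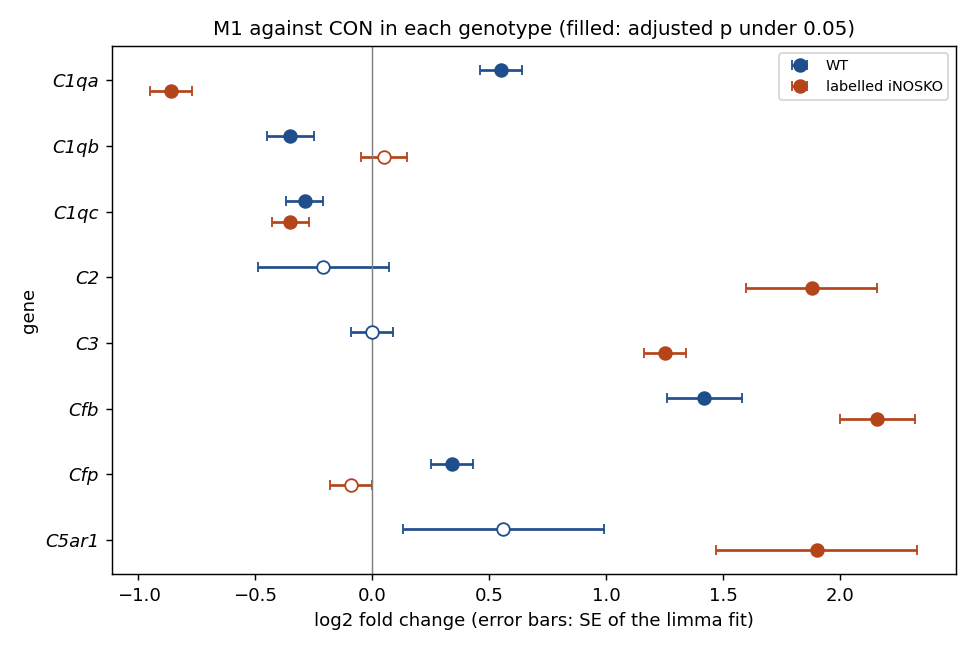
Log2 fold change of M1 against CON in WT (blue) and in iNOSKO (red) for 8 of the genes, with the SE of the limma fit as error bars and filled points where the adjusted p was under 0.05. C3ar1 is left out because it was undetected in both M1 groups. C2, C3, Cfb and C5ar1 lie to the right in iNOSKO, and C1qa lies on opposite sides of 0 in the 2 genotypes.

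The 3 C1q chains, which assemble into 1 protein, did not change together. C1qa read 8.36 and 8.33 in WT CON, 8.92 and 8.86 in WT M1, 9.05 and 8.94 in iNOSKO CON, and 8.07 and 8.19 in iNOSKO M1. The WT M1 and iNOSKO CON arrays were high and those of WT CON and iNOSKO M1 low, without overlap between high and low. Activation raised C1qa by 0.55 ± 0.09 in WT, or 1.46-fold (limma adjusted p = 0.00833), and lowered it in iNOSKO, where the change was -0.86 ± 0.09, or 1.82-fold (limma adjusted p = 0.000955). The difference in response was -1.41 ± 0.13 (limma adjusted p = 0.00115). Against WT, iNOSKO was 0.65 ± 0.09 higher in CON (limma adjusted p = 0.0051) and differed by -0.76 ± 0.09 in M1 (limma adjusted p = 0.00178). Every one of these C1qa calls held under all alternatives, each array left out included, apart from a 2-fold minimum, which only the difference in response passed. The summed intensity of 7 dividing cell markers had the same order of high and low groups, at 557 to 631 in WT CON, 1730 to 1840 in WT M1, 1970 to 1980 in iNOSKO CON and 716 to 721 in iNOSKO M1. Ccnb2 and Bub1 were undetected in every group, and the part of dividing cells in the result was not tested.

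C1qb read 12.86 and 12.73 in WT CON, 12.43 and 12.45 in WT M1, 12.21 and 12.10 in iNOSKO CON, and 12.14 and 12.27 in iNOSKO M1. WT CON was highest, and the 2 iNOSKO groups overlapped. C1qb was lower in iNOSKO CON than in WT CON, with a change of -0.64 ± 0.10, or 1.56-fold (limma adjusted p = 0.00741), and lower in WT M1 than in WT CON, with a change of -0.35 ± 0.10 (limma adjusted p = 0.0454). The iNOSKO response, 0.05 ± 0.10, was not called (limma adjusted p = 0.714) and changed direction with the scaling, to -0.67 under quantile normalization and -0.66 under neqc, both called. The difference between the M1 groups was -0.24 ± 0.10 (limma adjusted p = 0.0995), against -0.79 and called under both of those scalings. The difference in response, 0.40 ± 0.14 (limma adjusted p = 0.0726), turned to -0.24 and -0.23. For this bright probe the direction of the iNOSKO response was therefore not settled.

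C1qc read 11.57 and 11.65 in WT CON, 11.34 and 11.30 in WT M1, 11.23 and 11.24 in iNOSKO CON, and 10.85 and 10.92 in iNOSKO M1. It was highest in WT CON and lowest in iNOSKO M1. Activation lowered it by similar amounts, with changes of -0.29 ± 0.08 in WT (limma adjusted p = 0.0417) and -0.35 ± 0.08 in iNOSKO (limma adjusted p = 0.0167), and the difference in response was -0.06 ± 0.11 (limma adjusted p = 0.727), which became -0.63 and called under quantile normalization and neqc. Against WT, iNOSKO differed by -0.38 ± 0.08 in CON (limma adjusted p = 0.0203) and by -0.44 ± 0.08 in M1, 1.35-fold lower (limma adjusted p = 0.00851). The last of these was -0.90 under quantile normalization and was called under every alternative but the 2-fold minimum. With only the arrays compared, the iNOSKO response and the difference in CON were not called (limma adjusted p = 0.0603 and 0.059). Under quantile normalization the difference in CON was -0.27 and not called (limma adjusted p = 0.061). The iNOSKO response lost its call without iNOSKO CON replicate 1, iNOSKO CON replicate 2 or iNOSKO M1 replicate 1 (-0.37, -0.37 and -0.32), and the difference in CON without WT CON replicate 2 or either iNOSKO CON array (-0.38, -0.36 and -0.37). The falls of C1qb and C1qc in WT were small, and with each of the 8 arrays left out in turn the call of C1qb held once (without iNOSKO M1 replicate 1) and that of C1qc never.

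C1qa, C1qc and C1qb follow each other in the RefSeq gene table with 0 other protein-coding genes between them. The promoters of C1qb and C1qc are shown because these neighbours were both lower in WT M1 and in iNOSKO CON than in WT CON. Each is the 250 bases before the RefSeq start of GRCm38.p6 on the minus strand, at chr4:136886201-136886450 for C1qb and chr4:136892915-136893164 for C1qc, with the same capitals as for C3.
C1qb: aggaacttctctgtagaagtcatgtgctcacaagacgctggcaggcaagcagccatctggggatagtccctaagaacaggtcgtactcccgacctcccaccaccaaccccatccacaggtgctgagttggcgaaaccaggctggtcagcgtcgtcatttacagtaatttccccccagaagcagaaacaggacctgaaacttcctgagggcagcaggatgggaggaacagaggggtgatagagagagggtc
C1qc: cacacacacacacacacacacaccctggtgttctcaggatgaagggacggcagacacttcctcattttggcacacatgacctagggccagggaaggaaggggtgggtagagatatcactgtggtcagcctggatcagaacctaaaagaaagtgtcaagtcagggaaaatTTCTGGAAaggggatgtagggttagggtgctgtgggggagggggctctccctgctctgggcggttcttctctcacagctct
C1qc has 1 C/EBP match, 81 bases before the start, and C1qb has 0. Neither window holds the GAS, ISRE or NF-kB pattern as written above, although the looser NF-kB pattern tried first matched in both. Promoter sequences were found for 6 of the 9 genes, and those of C1qa, C2 and Cfb were not used here.

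Cfp, properdin, read 13.14 and 13.16 in WT CON, 13.42 and 13.56 in WT M1, 13.46 and 13.46 in iNOSKO CON, and 13.40 and 13.34 in iNOSKO M1. WT CON lay below all other arrays by a small margin. Cfp rose by 0.34 ± 0.09 with activation in WT (limma adjusted p = 0.0336) and was 0.31 ± 0.09 higher in iNOSKO CON than in WT CON (limma adjusted p = 0.0485). In iNOSKO the response was -0.09 ± 0.09 (limma adjusted p = 0.456), and between the M1 groups the difference was -0.12 ± 0.09 (limma adjusted p = 0.315). The difference in response was -0.42 ± 0.12 (limma adjusted p = 0.0421). Under quantile normalization the WT rise shrank to 0.15 and lost its call, while the iNOSKO response became -0.74 and the difference between the M1 groups -0.64, both called. The rise in WT was called without WT M1 replicate 1, iNOSKO M1 replicate 1 or iNOSKO M1 replicate 2, and lost without any other single array. The call between the CON groups was lost without any single array, with values from 0.26 to 0.33.

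C5ar1, the receptor of C5a, read 4.32 and 4.53 in WT CON, 5.04 and 4.94 in WT M1, 2.11 and 3.32 in iNOSKO CON, and 4.31 and 4.92 in iNOSKO M1. The iNOSKO CON arrays were lowest, and the probe was detected on 1 of them. The change with activation was 1.9 ± 0.43 in iNOSKO, or 3.73-fold (limma adjusted p = 0.0154), and 0.56 ± 0.43 in WT (limma adjusted p = 0.364). The difference in response was 1.34 ± 0.61 and was not called (limma adjusted p = 0.135). Under neqc it was 0.59 and called (limma adjusted p = 0.0306), so whether the genotypes differed in it depends on the processing. C5ar1 was lower in iNOSKO CON than in WT CON, with a change of -1.71 ± 0.43 (limma adjusted p = 0.0334). With a floor of 16 on the intensity, which removes values near background, the iNOSKO response was 0.61 and the CON difference -0.43, and neither was called. With only the arrays compared, neither was called (limma adjusted p = 0.0703 and 0.0919). Without a detection filter the CON difference was not called (limma adjusted p = 0.0829). The call between the CON groups was also lost when either WT CON array, either WT M1 array or iNOSKO CON replicate 1 was left out, with values from -1.09 to -1.85, and the iNOSKO response lost its call without iNOSKO M1 replicate 2 (1.59). Between the M1 groups C5ar1 differed by -0.37 ± 0.43 (limma adjusted p = 0.513).

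C3ar1, the receptor of C3a, was at the limit of detection. It was detected on 1 array of WT CON (2.67) and 1 of iNOSKO CON (2.55), and set to 0 on the other array of each and on all 4 M1 arrays. No fold is given, because the bound lay under 1, and no comparison was called.

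**Figure D3:**
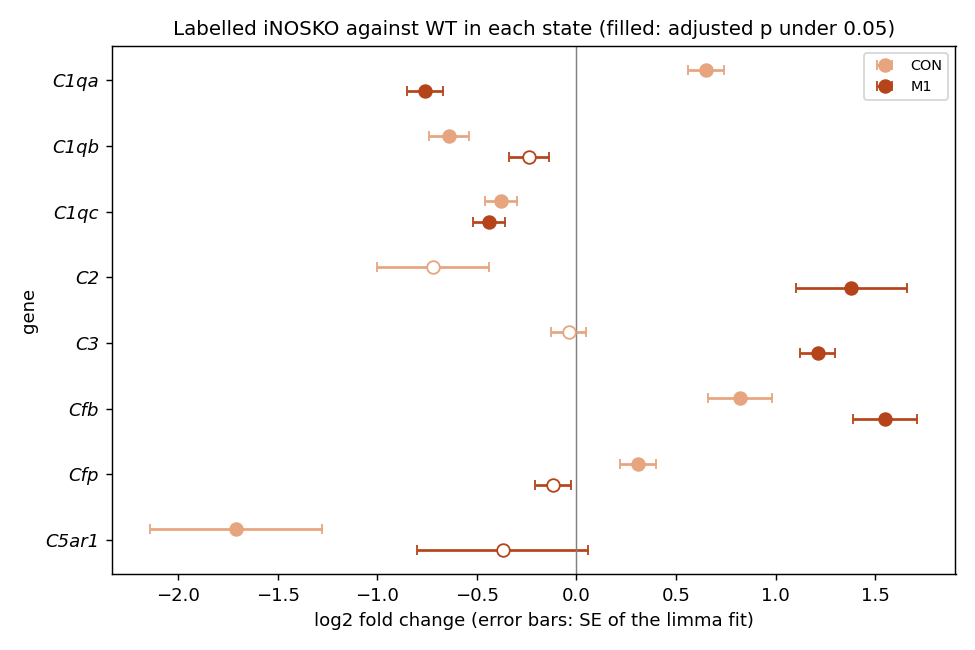
Log2 fold change of iNOSKO against WT in CON (light) and in M1 (dark) for 8 of the genes, with the SE of the limma fit as error bars and filled points where the adjusted p was under 0.05. C3ar1 is left out. C2 and C3 are called higher in iNOSKO in M1, while in CON C3 lies near 0 and C2 lies at -0.72 without a call, Cfb is higher in both, and C1qa changes sides.

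Over all 9 genes, 5 were called between WT M1 and WT CON, 3 higher and 2 lower, where 35.1% of the 13868 probes tested were called, 20.1% higher and 14.9% lower. Between iNOSKO M1 and iNOSKO CON 6 were called, 4 higher and 2 lower, beside 49.9% of all probes, 26.4% higher and 23.6% lower. Between iNOSKO M1 and WT M1 5 were called, 3 higher and 2 lower, beside 48.5%, 24.5% higher and 23.9% lower. Between the CON groups 6 were called, 3 in each direction, beside 32.1%, 16.1% higher and 16.1% lower. The difference in response was called for 4, 2 in each direction, beside 42.1%, 21.0% higher and 21.1% lower. The median log2 change of the 9 genes was 0.00, 0.05, -0.12, -0.06 and 0.40 in these comparisons, against 0.07, 0.05, 0.01, -0.02 and 0.01 over all probes. Nothing particular to complement genes is drawn from these counts.

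Unstimulated iNOSKO cells were also set against both WT groups. The iNOSKO CON mean was nearer to WT M1 than to WT CON for 6 of the 9 genes, and for 59% of all tested probes. Nothing particular to these genes is drawn from this count. The distance to WT M1 was 0.10 for C1qa, 0.09 for C1qc and 0.03 for Cfp, against 0.65, 0.38 and 0.31 to WT CON. For C1qb, C2 and Cfb it was 0.29, 0.50 and 0.60, against 0.64, 0.72 and 0.82. C3 lay 0.04 from each, and C5ar1 lay 2.27 from WT M1 and 1.71 from WT CON. These distances are a description without a test.

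Genes with the most similar profile were sought among 9680 probes detected on all 8 arrays, by the mean absolute difference of log2 values over the 8 arrays after each probe was centred. C3 was most like D12Ertd553e (0.049) and Prmt2 (0.056). Cfb was most like Psmb9 (0.090), a subunit of the immunoproteasome, and Pvrl2 (0.098). C1qa was most like Dusp22 (0.046) and Mcm4 (0.047), the latter a subunit of the replicative helicase, C1qb like Cyb5r3 (0.046) and Tlk1 (0.051), and C1qc like Ick (0.033) and Tmem43 (0.046). Cfp was nearest to Mrpl10 (0.042) and Sf3b2 (0.044), and C2 to Kif5a (0.140) and Mdm2 (0.161). The dim C5ar1 probe had no close match, with Cav2 (0.313) and Sirpa (0.379) nearest, and neither had C3ar1, with Bet1 (0.657) and D230037D09Rik (0.662). The median over all candidates ran from 0.353 for Cfp to 1.01 for C3ar1.

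**Figure D4:**
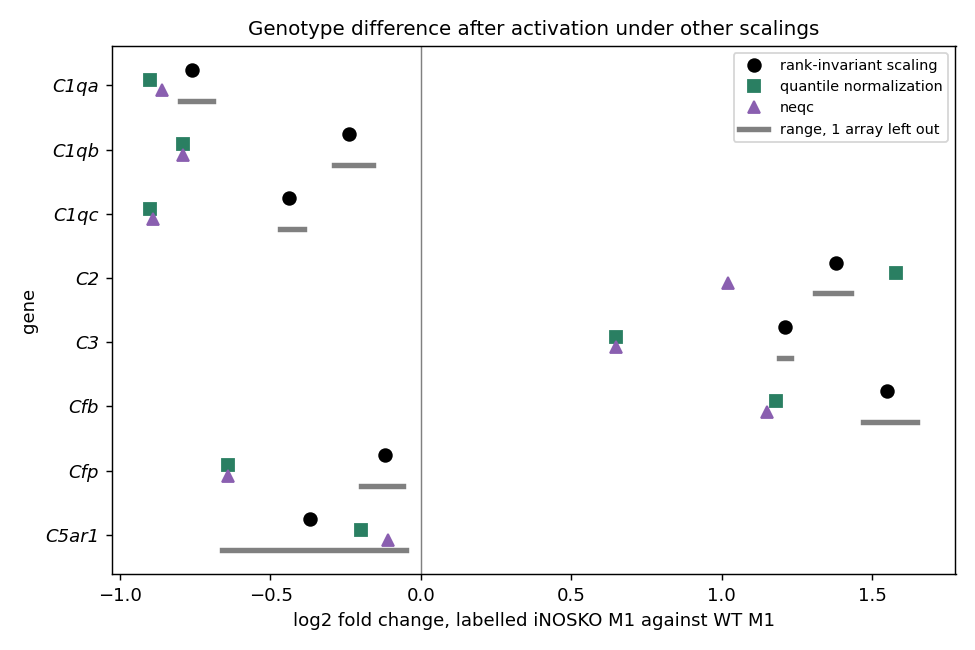
Log2 fold change of iNOSKO M1 against WT M1 under rank-invariant scaling (circles), quantile normalization (squares) and neqc (triangles), with grey bars for the range when 1 array was left out. C2, C3 and Cfb stay to the right of 0 and C1qa and C1qc to the left, while the distance from 0 of C1qb, C1qc, C3 and Cfp moves with the scaling.

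The other complement genes were taken from 4 lists of 49 symbols, of which 38 were on the array and 19 passed the detection filter. Between iNOSKO M1 and WT M1, 8 of the 19 were called and all 8 were lower, beside 48.5% of all probes called, 24.5% higher and 23.9% lower, with a median change of -0.62, or -0.39 with genes undetected in a group at their bound. Under quantile normalization 7 were called, all lower, but under neqc 13 were called, 3 higher and 10 lower. With a floor of 16, with only the arrays compared and without WT M1 replicate 2, iNOSKO CON replicate 1, iNOSKO CON replicate 2 or iNOSKO M1 replicate 1, 1 was called higher each time, and with no detection filter 2 of 38, so the lack of higher calls depends on the processing. Between WT M1 and WT CON 9 were called, 4 higher and 5 lower (35.1% of all probes were called), with a median of -0.06 (0.00 at the bounds), and between iNOSKO M1 and iNOSKO CON 6, 2 higher and 4 lower (49.9% of all probes), with a median of -0.36 (-0.12 at the bounds). Between the CON groups 8 were called, 1 higher and 7 lower (32.1% of all probes, 16.1% in each direction), with a median of -0.01. A gene detected only where it was high could pass the filter through that group alone.

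Of 7 regulators tested, 3 were lower in iNOSKO M1 than in WT M1 and 0 higher, with 4 not called, beside 48.5% of all probes called and 23.9% lower. Cd59a, which blocks assembly of the membrane attack complex, read 8.99 and 9.08 in WT CON, 7.41 and 7.62 in WT M1, 6.22 and 6.07 in iNOSKO CON, and 5.22 and 5.32 in iNOSKO M1. No group overlapped another, and iNOSKO M1 was lowest. The change was -2.24 ± 0.12 between the M1 groups (limma adjusted p = 0.000224) and -1.52 ± 0.12 with activation in WT (limma adjusted p = 0.000718). The genotype difference of Cd59a was larger in CON, at -2.89 ± 0.12 (limma adjusted p = 0.000127). Its difference in response was 0.65 ± 0.16 (limma adjusted p = 0.0273). Cd93, once described as a C1q receptor, read 10.74 and 10.51 in WT CON, 9.62 and 9.53 in WT M1, 9.18 and 9.15 in iNOSKO CON, and 8.42 and 8.25 in iNOSKO M1. Cd93 was lower in iNOSKO in both states, with a change of -1.46 in CON (limma adjusted p = 0.000944) and -1.24 in M1 (limma adjusted p = 0.0009). Serping1, the inhibitor of C1r and C1s, was undetected in both CON groups and read 4.50 and 4.55 in WT M1 and 5.70 and 5.76 in iNOSKO M1. It was called higher in WT M1 than in WT CON, by 4.53 (limma adjusted p = 0.00375). In iNOSKO M1 it was called higher than in iNOSKO CON, by 4.8 (limma adjusted p = 0.00159). The bounds of these changes under rank-invariant scaling were 1.97 (3.91-fold) and 3.36 (10.3-fold), and the p-values do not belong to the bounds. Under neqc the changes of Serping1 were 0.94 and 1.81, smaller than these bounds, and both were called. The difference between its M1 groups, 1.2 ± 0.57, was not called (limma adjusted p = 0.143), and under neqc it was 0.93 and called.

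Of the 5 receptors tested, 3 were lower in iNOSKO M1 than in WT M1 and 0 higher, beside the same 23.9% of all probes lower and 24.5% higher. Calr, calreticulin, which binds C1q at the cell surface, read 8.53 and 8.34 in WT CON, 9.15 and 8.94 in WT M1, 7.69 and 7.76 in iNOSKO CON, and 8.00 and 8.19 in iNOSKO M1. Calr was lower in iNOSKO in both states, with a change of -0.71 ± 0.13 in CON (limma adjusted p = 0.0124) and -0.95 ± 0.13 in M1 (limma adjusted p = 0.00294). Itgam, the α chain of complement receptor 3, read 7.23 and 7.14 in WT CON, 8.02 and 7.83 in WT M1, 7.45 and 7.39 in iNOSKO CON, and 7.33 and 7.27 in iNOSKO M1. It rose by 0.74 ± 0.10 in WT (limma adjusted p = 0.00481), and the difference between the M1 groups was -0.62 ± 0.10 (limma adjusted p = 0.00535). Lrp1, an endocytic receptor that pairs with calreticulin, fell in WT with activation, with a change of -0.80 ± 0.11 (limma adjusted p = 0.00521). In iNOSKO it fell by a similar amount, with a change of -0.72 ± 0.11 (limma adjusted p = 0.00421). Against WT, Lrp1 was lower in iNOSKO in CON, at -0.70 (limma adjusted p = 0.00842), and in M1, at -0.62 (limma adjusted p = 0.00808).

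Among the initiators, 10 genes were on the array and 4 were tested. Fcna, a ficolin that starts the lectin pathway, read 6.67 and 6.62 in WT CON, 4.87 and 4.82 in WT M1, 4.32 and 4.14 in iNOSKO CON, and 3.30 and 4.09 in iNOSKO M1. It fell in WT with activation, with a change of -1.80 ± 0.26 (limma adjusted p = 0.00572), and was lower in iNOSKO M1 than in WT M1, with a change of -1.15 ± 0.26 (limma adjusted p = 0.0167; -0.53 under neqc, still called). The genotype difference was larger in CON, at -2.41 ± 0.26 (limma adjusted p = 0.00233), and the difference in response was 1.26 ± 0.37 (limma adjusted p = 0.0429). Of the terminal components and factor D, 7 were on the array and 3 were tested. C8g, a chain of C8, was lower in iNOSKO M1 than in WT M1, with a change of -0.94 ± 0.28 (limma adjusted p = 0.0384), a call lost under quantile normalization (-0.81). C9, the pore-forming component, was detected on 1 array of WT M1 (3.57) and 1 of iNOSKO CON (2.71), and on 0 of the other 6. Its probe passed the filter through these arrays alone, so no fold is given for it, although it is counted above among the genes called higher in WT M1 and in iNOSKO CON than in WT CON.

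**Figure D5:**
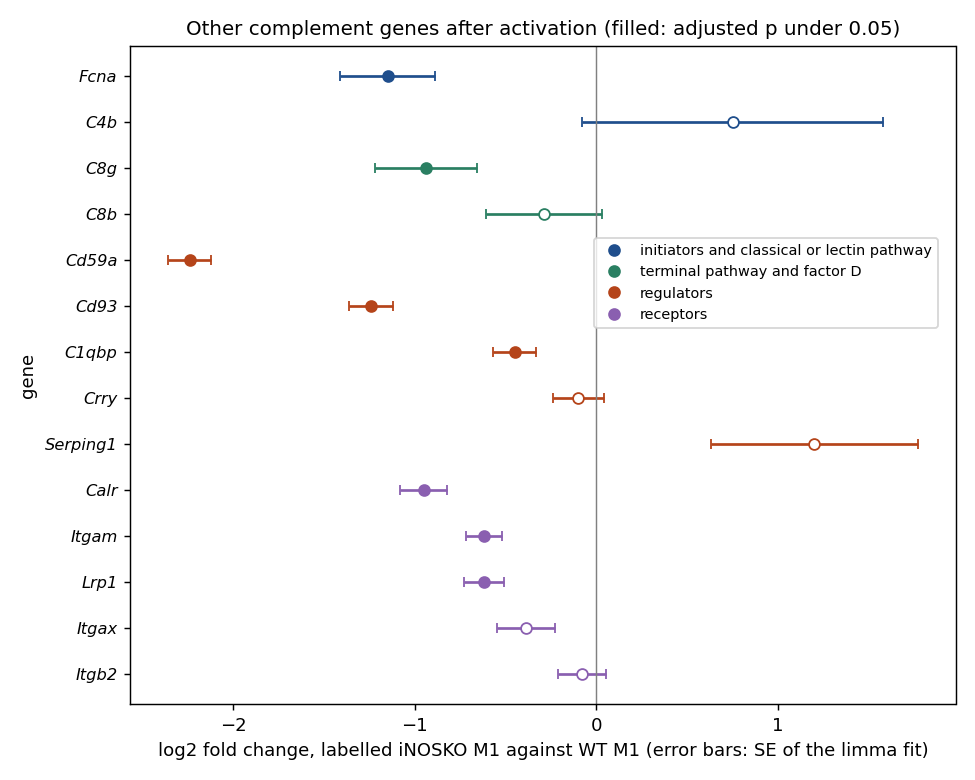
Log2 fold change of iNOSKO M1 against WT M1 for the 14 other complement genes that were detected in both groups, coloured by list, with the SE of the limma fit as error bars and filled points where the adjusted p was under 0.05. The 8 called genes, Cd59a the farthest, all lie to the left of 0, and the 5 tested genes that were undetected on both arrays of a group are left out.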

How the data were processed

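RNA of the 8 samples was hybridised to Illumina bead arrays, which the labels call MouseRef-8 and the methods MouseWG-8. The authors deposited a GenomeStudio report that holds the unnormalized intensity of each probe. The deposited detection p-value says how a probe compares with negative controls. The methods name background subtraction. The header of the GenomeStudio report names none, yet undetected intensities lie around 0, so none was subtracted here. No value column (0) was without a sample. Per the labels and methods, the authors took log2 values and used limma 3.14.4.

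Groups and replicate numbers came from the labels. The deposited intensities were scaled array by array against their mean over arrays, by robust regression without intercept (MASS 7.3.60.0.1) on rank-invariant probes (rank difference under 0.05 of the rank in the mean, ranks between 0.5 and 0.9 of all probes). Scale factors ran from 0.839 to 1.345. Values under 1 were set to 1 before log2. The filter asked for detection at p under 0.05 on 2 arrays or more, which 13868 probes met. limma 3.58.1 (R 4.3.3; lmFit, eBayes) fitted the 4 groups together over the 8 arrays, and p-values were adjusted by Benjamini-Hochberg over all of these probes. The procedure was also run on simulated data in which only bright probes, and a small share of all probes, were changed. That run does not cover dim probes or scaling with as many changed probes as here. With 2 arrays per group, the number of arrays limits the precision. For a probe undetected on both arrays of a group, the bound compares the bright group's mean with, per dim array, the higher of the probe's value and the lowest detected value.

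The genes and lists were chosen with earlier results of these data known. Named are the 9 genes, Nos2, per list the 2 other complement genes with the largest called change without overlap between the M1 groups and in WT, and the 2 most similar genes to each of the 9. The values of 1 macrophage marker gene are not reported here. Gene names are those of the array. Promoters came from RefSeq (GRCm38.p6), and the patterns searched were chosen after the sequences were seen; a looser NF-kB pattern tried first had matches in C3, C1qb, C1qc, Cfp and C3ar1 and in a large share of all promoters. The alternatives were quantile normalization, neqc, a floor of 16, other detection filters, only the arrays compared, a replicate block, an intensity trend, a 2-fold minimum, each array left out and, chosen after seeing the data, the scaling line fitted the other way.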

Additional observations from a re-analysis of the deposited data

Results flagged for a closer look

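The response to LPS and IFN-γ differed between the genotypes for 4 of the 9 genes, by the interaction test in limma. This is near the share over all probes tested, of which 42.1% were called. As the iNOSKO response minus the WT response on the log2 scale, the difference was -1.41 for C1qa (limma adjusted p = 0.00115), 2.1 for C2 (limma adjusted p = 0.0113), 1.24 for C3 (limma adjusted p = 0.00181) and -0.42 for Cfp (limma adjusted p = 0.0421). C1qa rose on both WT M1 arrays and fell on both iNOSKO M1 arrays relative to CON. The call of Cfp was lost without any single one of the 8 arrays but WT M1 replicate 1. Groups of 2 arrays are too small to look for outlying arrays.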

How the results depend on the processing

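The number of the 9 genes called between WT M1 and WT CON was 5, and 2 when only the arrays compared were fitted, 2 with the replicate block, 3 with the scaling line fitted the other way and 1 with a 2-fold minimum; it ran from 2 to 4 when 1 array was left out. Between iNOSKO CON and WT CON it was 6, and 2 with only the arrays compared, 1 with a 2-fold minimum and 2 to 5 with 1 array left out. Between iNOSKO M1 and WT M1 it was 5, and 3 with a 2-fold minimum. The other counts stayed within 1.5 times. Arrays of equal replicate number showed no shared deviation across groups (correlations of deviations from -0.034 to 0.027 over 9687 probes). This cannot tell whether they share an origin, which the labels do not give. The replicate block left 6, 5, 5 and 3 calls in the other comparisons.

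Directions that changed were those of C1qb in iNOSKO M1 against CON (-0.67 under quantile normalization, -0.66 under neqc, and -0.03 to 0.11 with 1 array left out), of its difference in response (-0.24 and -0.23), and of C3 between the CON groups (0.18, 0.17, and -0.11 to 0.07). With 1 array left out, sign also changed for the uncalled C2 (-0.51 to 0.03) and C3 (-0.05 to 0.02) in WT, the C1qc difference in response (-0.10 to 0.02), and C3ar1 between the CON groups (-1.41 to 1.22) and in its difference in response (-1.22 to 1.41, and -0.04 under neqc). The cause was not tested. Quantile normalization moved the median of all probes by -0.132 in WT and -0.18 in iNOSKO, and neqc by -0.105 and -0.112, and among calls in iNOSKO the share higher was 52.8%, 41.9% and 43.3% under rank-invariant scaling, quantile normalization and neqc, and in WT 57.5%, 47.4% and 44.4%. A slide block was not run, since no slide is named. The signal over background limits C2, C5ar1 and C3ar1 most. C3ar1 gave no value with a floor of 16.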
